A study of Homo sapiens with 18 samples.

Results

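The genes described here are 9 genes of the Hippo pathway and of its transcriptional output through YAP and TEAD: AMOTL1, AMOTL2, ANKRD1, CTGF, CYR61, LATS2, YAP1, WWTR1 and TEAD1. They were picked out by symbol and followed wherever the deposited tables list them. All 9 were among the 10975 genes of the RPKM table (reads scaled by transcript length and by the number of mapped reads), and only AMOTL1 and AMOTL2 were among the 497 genes of the mutant table. The other 7 members are not listed in the mutant table, so no value in SP5 mutant cells is given for them.

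The study asked what the transcription factor SP5 does downstream of WNT signaling in H1, a human embryonic stem cell line that is long established. WT cells grown in E8 medium were sequenced by RNA-Seq at 0 h, without Wnt3a, and after 12, 24 and 48 h with Wnt3a at 1 nM. This was done in a first WT series and again as WT rep2. dZF1 and dZF2, sequenced at the same times and the same dose, are 2 single clones in which CRISPR-Cas9 removed the part of both SP5 alleles that codes for the zinc fingers, so each mutant group is 1 clone and the pair shares its parental line and guide RNAs. There was 1 library for each series and time, so the values over time carry no replicate error within a series and no p-value is given. With 2 clones set against 2 WT series, the smallest two-sided exact permutation p is 0.33. SP5 ChIP-Seq peaks were deposited as a list for a 0 h sample and a list for a 24 h sample with 1 nM Wnt3a. The file headers name the same Wnt3a-treated ChIP library, with the letters H9 in its name, behind both lists, and the lists differ in the control library, buffer-treated for the 0 h sample and Wnt3a-treated for the 24 h sample. They are therefore called the buffer-control list and the Wnt3a-control list here, and their difference is not one between untreated and treated cells.

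In the Hippo pathway, a kinase cascade that ends in LATS1 and LATS2 phosphorylates the coactivators YAP1 and TAZ (encoded by WWTR1) and holds them in the cytoplasm. When the cascade is inactive, YAP1 and TAZ enter the nucleus and bind TEAD transcription factors, which recognise the bases GGAATG. CTGF, CYR61 and ANKRD1 are widely used readouts of that activity. AMOTL1 and AMOTL2 are motins, junction proteins related to angiomotin that bind YAP1 and can keep it out of the nucleus, and AMOTL2 and LATS2 are also known as genes that YAP1 and TAZ activate. SP5 is a zinc-finger protein of the SP/KLF family, which binds GC boxes.

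The sequences that carry the SP5 peaks of the motin genes are shown first, on GRCh37 (hg19) and on the strand of the gene. Capitals mark GC-box letters, GGGCGG or GGGAGG on either strand (CCGCCC or CCTCCC when read on the other). The first is the summit of the AMOTL1 peak, chr11:94599687-94599887 on the plus strand, in an intron. The second is the summit of the AMOTL2 intron peak, chr3:134083072-134083272 on the minus strand. The third is the stretch directly upstream of an internal AMOTL2 start site, chr3:134093290-134093539 on the minus strand, taken from the RefSeq promoter table after an exact match to GRCh37, and it holds the summit of the AMOTL2 start-site peak.
AMOTL1 intron summit: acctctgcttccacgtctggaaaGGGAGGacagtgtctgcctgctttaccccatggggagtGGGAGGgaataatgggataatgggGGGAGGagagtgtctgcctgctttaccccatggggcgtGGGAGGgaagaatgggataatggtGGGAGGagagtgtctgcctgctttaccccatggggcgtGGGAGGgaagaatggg
AMOTL2 intron summit: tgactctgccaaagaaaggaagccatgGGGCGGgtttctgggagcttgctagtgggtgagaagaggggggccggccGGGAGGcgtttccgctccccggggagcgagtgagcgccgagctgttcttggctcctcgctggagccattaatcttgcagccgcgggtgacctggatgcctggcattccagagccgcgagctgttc
AMOTL2 internal start site: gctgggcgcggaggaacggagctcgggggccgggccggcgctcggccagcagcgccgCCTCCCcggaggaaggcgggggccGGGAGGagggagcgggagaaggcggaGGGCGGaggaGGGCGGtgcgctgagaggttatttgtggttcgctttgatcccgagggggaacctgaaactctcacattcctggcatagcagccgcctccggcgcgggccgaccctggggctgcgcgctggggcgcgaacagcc
The AMOTL1 window held GGGAGG 6 times and GGGCGG 0 times, and it is built of a repeated unit: moved along itself by 62 bases, 82.0% of its bases were equal. At least 80% equal bases at a shift of 10 to 100 bases were found in only 3 of 804 peak windows, 0.373%, and the median best match was 36.8%. This search was chosen after the sequence had been seen. The AMOTL2 intron window held each GC-box form 1 time, and the AMOTL2 start-site stretch held each 2 times, beside 1 GGAATG on the other strand. That stretch is a promoter stretch, and neither GC-box form lay within 100 bases of the summit of the start-site peak. At least 2 GGGCGG were found in 24.3% of 35116 promoters, and at least 2 GGGAGG in 19.2%. Reads from repeated units can be placed at more than 1 copy, and how the aligner treated such reads at the AMOTL1 peak was not tested.

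Both motins had a higher RPKM at each later time of the first WT series. The RPKM of AMOTL1 at 0, 12, 24 and 48 h was 24.9, 30.4, 42.9 and 48.4. That of AMOTL2 was 14.8, 21.9, 28.6 and 32.6 at the same times. The RPKM at 48 h was 1.94 times that at 0 h for AMOTL1 and 2.20 times for AMOTL2. On the scale used for all changes, log2 of RPKM with 1 added, the change at 48 h was 0.93 for AMOTL1 and 1.09 for AMOTL2. The RPKM of AMOTL1 and AMOTL2 together went from 39.7 to 81.0, with AMOTL1 giving 58.1% to 62.7% of the sum. The founding member of the family, AMOT, is not listed in the table, whose genes all reach an RPKM of at least 4.

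The coactivators and TEAD1 moved less. YAP1, the most abundant of the 9 genes, had an RPKM of 77.8, 86.1, 87.4 and 97.7 at 0, 12, 24 and 48 h, a log2 change of 0.33 at 48 h. WWTR1, which encodes TAZ, had an RPKM of 5.0, 7.1, 7.6 and 7.8, a log2 change of 0.55. YAP1 gave 92.0% to 94.0% of the summed RPKM of the coactivators at every time. TEAD1 had an RPKM of 15.9, 19.0, 20.0 and 21.4, a log2 change of 0.41. None of these reached 2-fold, and all were higher at 48 h than at 0 h. TEAD1 was a minor part of its family in these cells: the RPKM of TEAD1 to TEAD4 summed to 174.7 at 0 h and 189.4 at 48 h, and TEAD2 gave 50.6% to 55.2% of it. TEAD2 was 88.4 at 0 h and 103.5 at 48 h, TEAD3 was 15.4 and 21.1, and TEAD4, the family member with a lower RPKM at 48 h, was 55.0 and 43.4. VGLL4, which competes with YAP1 for TEAD, had an RPKM of 19.4 and 23.7, and VGLL1, VGLL2 and VGLL3 are not listed.

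LATS2, the kinase, had an RPKM of 10.5, 8.7, 8.2 and 8.1, a log2 change of -0.34 at 48 h. Its paralog LATS1 went from 13.5 to 16.3, a log2 change of 0.26. LATS2 is the member that is both an upstream kinase and a target of YAP1 and TAZ, and it was lower at 48 h, while AMOTL2, also such a target, was higher.

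Of the 3 classical readout genes, CTGF and CYR61 ended lower, and ANKRD1 was listed above 0 only at 48 h. CTGF, a secreted matrix-associated protein, had an RPKM of 11.8, 11.6, 6.5 and 4.9, and its RPKM at 48 h was 0.415 of that at 0 h, a log2 change of -1.12. CYR61, its close relative, had an RPKM of 5.6, 5.8, 4.1 and 3.3, a log2 change of -0.62 at 48 h. Both were level from 0 to 12 h and lower at 24 and 48 h. ANKRD1, which encodes a nuclear and sarcomeric ankyrin-repeat protein, is listed at 0 at 0, 12 and 24 h and at an RPKM of 8.3 at 48 h. No fold is given for ANKRD1, because a listed 0 can be a failed estimate and there are no counts behind it.

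**Figure D1:**
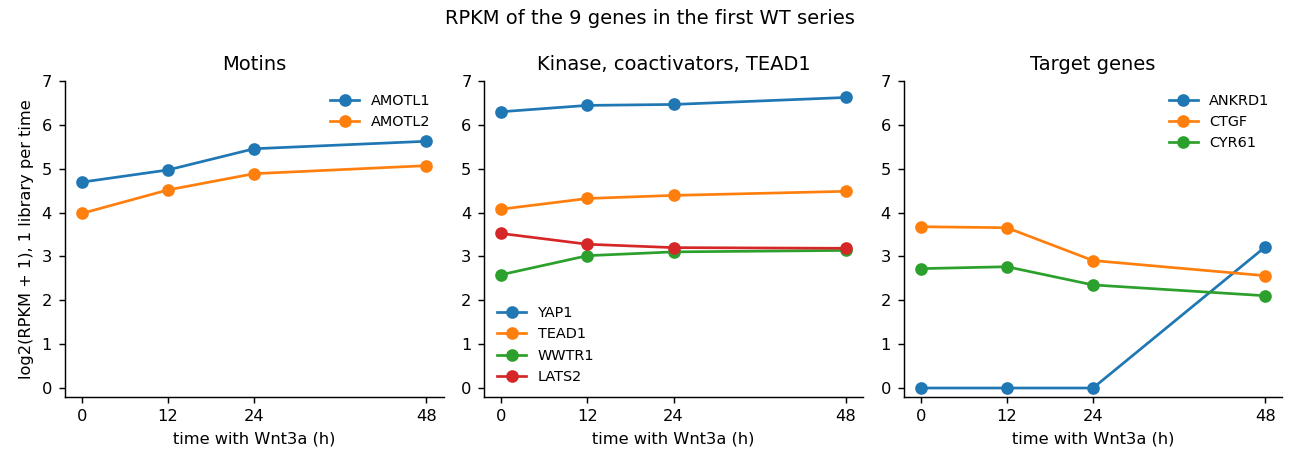
RPKM of the 9 genes in the first WT series on a log2 axis with 1 added, against hours with 1 nM Wnt3a, with 1 library per point. Both motins are higher at each later time, CTGF and CYR61 end below their start, and ANKRD1 leaves 0 only at 48 h.

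Among the 9 genes, 0 were 2-fold or more higher or lower at 12 h, where 1.22% of all 10975 genes were higher and 0.738% lower. At 24 h 0 of the 9 were past 2-fold, against 2.62% of all genes higher and 1.36% lower. At 48 h AMOTL2 was higher and CTGF was lower, 1 each of the 8 members other than ANKRD1, against 4.87% higher and 2.95% lower among all genes. ANKRD1 also met the rule for higher, but it did so through its listed 0 and the added 1. AMOTL1, at 0.93, lay just under the 2-fold line and AMOTL2, at 1.09, just over it. The median log2 change at 48 h was 0.41 over the 9 genes and 0.37 without ANKRD1, beside a median of -0.003 over all listed genes.

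The rest of the pathway is described by lists. A set of 5 lists held 64 genes, the members included, of which 52 are listed in the RPKM table. Of the 20 genes of the kinase core and its adaptors, all 20 were within 0.5 of 0 on the log2 scale at 48 h, from -0.43 for WWC1 to 0.44 for LIMD1, and so were 75.4% of all listed genes. Of the 12 junction and polarity genes, all 12 were within 0.5, from -0.46 for LLGL2 to 0.46 for CRB3. Of the 7 listed coactivators and TEAD partners, 6 were above 0 and TEAD4 was below, and 6 were within 0.5 of 0. Of all 10975 listed genes, 5364 were above 0 at 48 h and 5493 below. The 14 listed YAP and TAZ target genes were the most scattered: 8 were above 0 and 6 below at 48 h, with a median of 0.12. Several of them were low: the highest RPKM over the 4 times was 5.8 for CYR61, 9.7 for F3 and 11.8 for CTGF, while AMOTL2 reached 32.6. The part of a low level in this scatter was not tested. Over all 52 genes, AMOTL2 was again the gene at least 2-fold higher at 48 h, ANKRD1 apart, and CTGF the gene at least 2-fold lower. F3, which encodes tissue factor, had an RPKM of 4.5, 5.5, 7.2 and 9.7, so its RPKM was 2.16 times higher at 48 h, while its log2 change with 1 added, 0.96, was under the line. GADD45B, a stress-response gene among the targets, was the single list gene past 2-fold at 12 and 24 h. Its RPKM over the 4 times was 3.9, 10.3, 19.2 and 6.3, so it peaked at 24 h and was at a log2 change of 0.58 at 48 h.

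**Figure D2:**
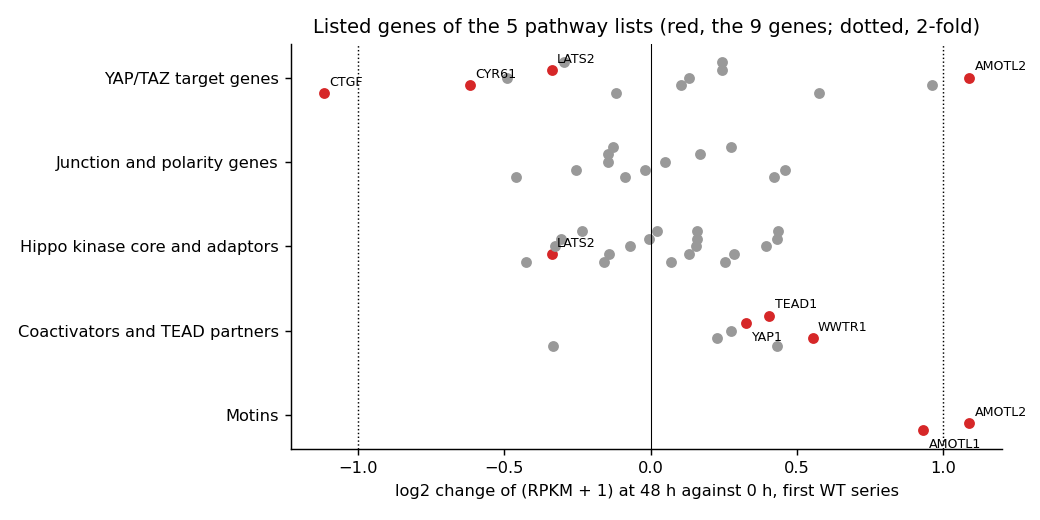
Change of each listed gene of the 5 pathway lists at 48 h against 0 h in the first WT series, as log2 of RPKM with 1 added, 1 point per gene and the 9 genes in red. Kinase core and junction genes stay within 0.5 of 0, while target genes reach from CTGF at -1.12 to AMOTL2 at 1.09. ANKRD1, listed at 0 until 24 h, is not drawn, and genes in 2 lists are drawn in both.

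Markers of cell identity changed level over the same hours. The pluripotency markers POU5F1, SOX2, TDGF1, LIN28B and NANOG were all listed, with a summed RPKM of 808.8 at 0 h and 602.8 at 48 h. The largest part of that difference came from SOX2, at 238.3 and 105.5. At the same times POU5F1 was 294.6 and 243.1, TDGF1 228.5 and 208.0, LIN28B 44.1 and 42.8, and NANOG 3.3 and 3.4. The mesendoderm markers EOMES, MIXL1 and GSC summed to 0.5, 110.7, 438.2 and 243.4 at 0, 12, 24 and 48 h. Of 5 markers of mural cells, fibroblasts and endothelium, COL1A1 alone is listed, at an RPKM of 2.6 to 4.2, and ACTA2, COL3A1, PECAM1 and CDH5 are not. In bulk RNA a change in the share of a cell type and a change per cell cannot be told apart, and the part of the marker changes in the values of the 9 genes was not tested.

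Before the mutant cells are described, the WT series have to be set side by side, because WT rep2 stood apart from the other 3 series at 24 h. In the mutant table each gene is scaled to its maximum in WT rep2, for WT rep2 and the clones alike, while the first WT series was scaled to a maximum of its own. At 24 h the value of EOMES in the first WT series was 0.78, that in WT rep2 0.05, that in dZF1 0.94 and that in dZF2 1.90. For SP5 the 24 h values were 0.67, 0.09, 0.90 and 0.75 in that order. Over the 191 genes of the mutant table that were at least 2-fold higher at 24 h in the first WT series, the median log2 change from 0 to 24 h was 1.54 in that series, which chose them, 0.32 in WT rep2, 1.00 in dZF1 and 1.26 in dZF2. From 0 to 12 h these medians were 0.77, 0.12, 0.23 and 0.27 in the same order. The SP5 values at 12 h were 0.37, 0.02, 0.23 and 0.62, the first of them on its own scale. Both the median and SP5 were lowest in WT rep2 at 12 h too. The 12 h medians of the clones nevertheless lay nearer to WT rep2 than to the first WT series, which chose the genes. Each ratio of a clone to WT rep2 rests on that series. The SP5 transcript itself does not check the deletion, since RPKM is summed over the whole gene: it reached 2.54 in dZF1 and 2.61 in dZF2 at 48 h against 1.00 in WT rep2.

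At every time, 0 h without Wnt3a included, both clones had more AMOTL1 than WT rep2. Its value in WT rep2 was 0.29, 0.30, 0.37 and 1.00 at 0, 12, 24 and 48 h. In dZF1 it was 0.57, 0.66, 1.05 and 1.39, and in dZF2 it was 0.62, 0.85, 1.20 and 1.42. The clones lay close to each other and never overlapped the WT rep2 value of the same time. With 0.05 added to each value, the mean log2 ratio of the clones to WT rep2 at 0, 12, 24 and 48 h was 0.92 ± 0.08, 1.19 ± 0.24, 1.48 ± 0.13 and 0.47 ± 0.02 (SD between clones, n = 2 clones, 1 WT library). Among the 497 genes, both clones were above WT rep2 for 33.0%, 36.6%, 51.1% and 44.7% at the same times. At 24 h the median ratio over all 497 genes was 0.24 on the log2 scale, and relative to it AMOTL1 was at 1.24. AMOTL1 was 1 of 40 genes, 8.05%, for which this held at all 4 times. From the highest ratio down, AMOTL1 stood at place 25, 18, 41 and 127 of 497 at the 4 times.

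AMOTL2 was not higher in the clones at 0 h. In WT rep2 it was 0.72, 0.61, 0.64 and 1.00, in dZF1 it was 0.62, 0.87, 0.84 and 1.01, and in dZF2 it was 0.65, 0.96, 1.37 and 1.80. Without Wnt3a both clones were slightly below WT rep2, which was the case for 42.5% of the genes of the table. With Wnt3a dZF2 was above WT rep2 throughout, and dZF1 was above it at 12 and 24 h and level with it at 48 h. Over the 4 times the mean log2 ratio of the clones to WT rep2 was -0.17 ± 0.05, 0.55 ± 0.10, 0.70 ± 0.48 and 0.42 ± 0.57 (SD between clones, n = 2 clones). The median over all 497 genes was -0.07 at 0 h and 0.24 at 24 h, and relative to it AMOTL2 was at -0.10 and 0.46. At 48 h the clones differed from each other by 0.80 on the log2 scale, more than their mean differed from WT rep2, and without dZF2 the value was 0.01. AMOTL2 stood at place 289, 83, 135 and 145 of 497 at the 4 times. The paper also measured AMOTL2 by qPCR and reports it as significantly upregulated in SP5 mutant cells given Wnt3a. It names AMOTL2 among the genes with an associated SP5 peak. Those qPCR values are not among the data used here.

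**Figure D3:**
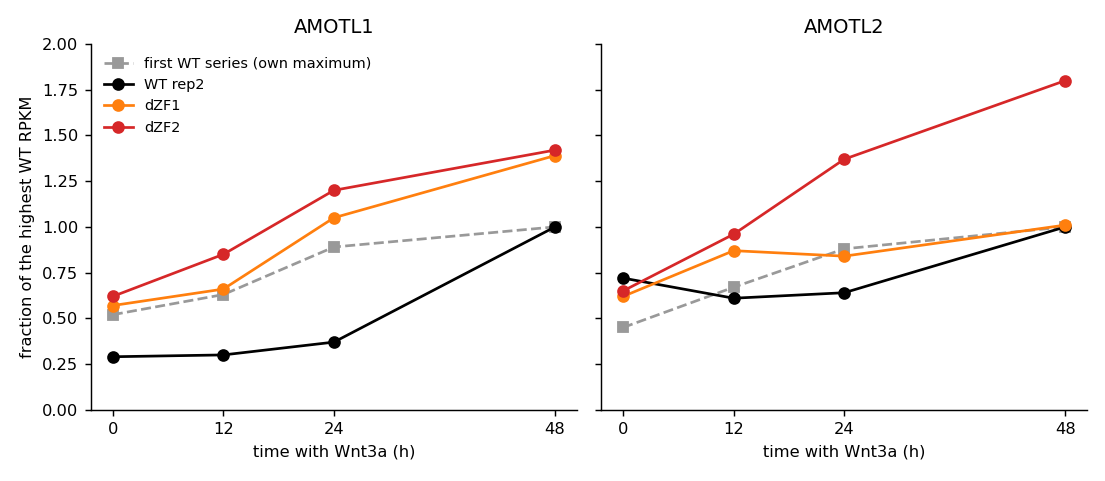
AMOTL1 and AMOTL2 in the first WT series (grey, fraction of its own maximum), WT rep2 (black) and the clones dZF1 and dZF2 (orange and red, relative to the maximum of WT rep2), against hours with 1 nM Wnt3a, 1 library per point. Levels of the grey line cannot be compared with the others, since it was scaled separately. AMOTL1 lies above WT rep2 in both clones at all 4 times, and AMOTL2 at 48 h in dZF2 (1.80), with dZF1 at 1.01.

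The change from 0 h within each series does not need a shared scale, and here the first WT series could be used too. The genes of the mutant table were chosen by the study for a response to Wnt3a, so the WT changes are not independent of that choice. On the log2 scale the change of AMOTL1 from 0 to 48 h was 0.88 in the first WT series and 1.63 in WT rep2, and 1.22 in dZF1 and 1.13 in dZF2. The clones lay between the WT series, and their mean differed from the WT mean by -0.08 (WT 1.25 ± 0.53, clones 1.18 ± 0.06, SD, n = 2 series each). At 24 h AMOTL1 had changed by 0.72, 0.31, 0.83 and 0.90 in the same order. Both clones were above both WT series there, as were 11.7% of the 497 genes, and the lower clone was 0.83 against 0.72 for the first WT series. AMOTL2 changed from 0 to 48 h by 1.07 in the first WT series, 0.45 in WT rep2, 0.66 in dZF1 and 1.40 in dZF2, and WT and clones overlapped at 12, 24 and 48 h. In WT rep2 AMOTL2 was lower at 12 and 24 h than at 0 h, by -0.22 and -0.16, where the first WT series had changed by 0.53 and 0.90. For both motins and at each of the 3 times with Wnt3a, the WT series differed from each other by more than the clone mean differed from the WT mean.

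GADD45B is the other pathway gene of the mutant table. Its value was 0.35, 0.67, 0.83 and 1.00 in WT rep2, 0.44, 0.44, 0.40 and 0.51 in dZF1, and 0.23, 0.25, 0.78 and 0.46 in dZF2. From 0 to 12 h it changed by 1.24 in the first WT series and 0.85 in WT rep2, and by 0.00 and 0.10 in the clones. At 12 h both clones were thus below both WT series in change, as were 18.1% of the genes. At 48 h both were below WT rep2 in level, as were 36.0%, with a mean log2 ratio of -0.97 ± 0.10 (SD, n = 2 clones). The clones differed at 24 h, where dZF2 had reached 0.78 and dZF1 stood at 0.40.

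**Figure D4:**
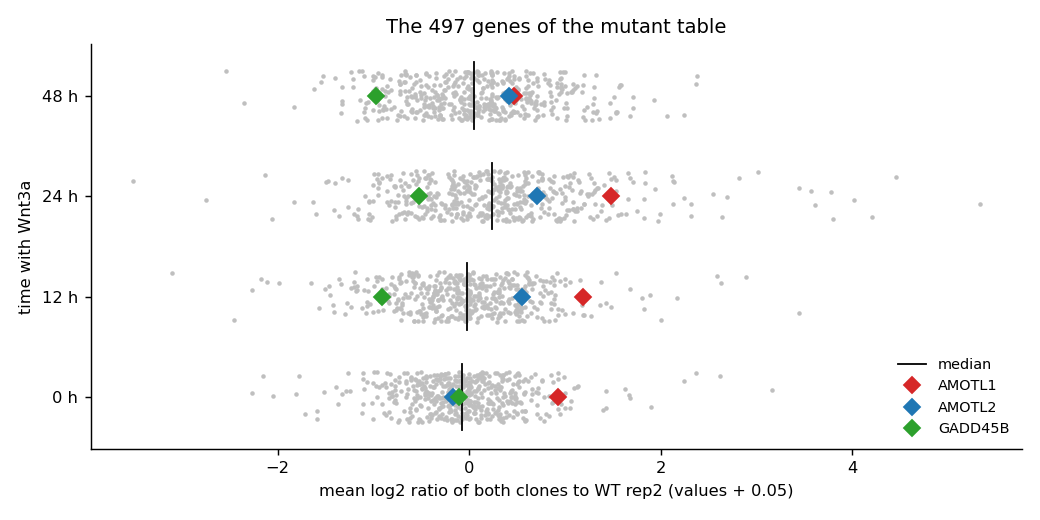
Mean log2 ratio of both clones to WT rep2 (0.05 added to each value) for the 497 genes of the mutant table at 0 h, without Wnt3a, and at 12, 24 and 48 h with it, 1 grey point per gene, the vertical position within a row being random and the black bar the median. AMOTL1 lies to the right of most genes at 0, 12 and 24 h and near AMOTL2 at 48 h, and GADD45B lies to the left of the median from 12 h on.

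The genes whose values ran most like AMOTL1 over the 12 libraries of the mutant table were IL17RD (Pearson's r = 0.993), PHLDB2 (0.986), TES (0.945), MMP2 (0.945) and LRRN2 (0.944). IL17RD, a membrane inhibitor of FGF signaling, was 0.25, 0.27, 0.29 and 1.00 in WT rep2, 0.49, 0.60, 0.83 and 1.36 in dZF1, and 0.57, 0.76, 1.13 and 1.23 in dZF2. Like AMOTL1, it exceeded the WT rep2 value in both clones at all 4 times, as held for 8.05% of the 497 genes. AMOTL2 itself ranked 76 among the genes most like AMOTL1, with r = 0.805. The genes most like AMOTL2 were APCDD1 (0.913), an inhibitor of WNT signaling, LOC440925 (0.892), GAD1 (0.891), GJA5 (0.880) and EOMES (0.880). APCDD1 was 2.29 in dZF2 and 1.45 in dZF1 at 48 h, so it shared the higher value of dZF2 with AMOTL2. SP5 had r = 0.882 with AMOTL1, at rank 32, and 0.843 with AMOTL2, at rank 16. These correlations describe 12 libraries that share 1 scaling and 1 WT series. The genes were picked for likeness over these same values, so a pattern that they share with a motin follows from the choice.

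SP5 peaks lay at the motin genes and at none of the other 7. A peak summit within 50 kb of the gene start was found for AMOTL2 alone among the 9 genes, while 5.75% of 10651 genes matched to the annotation had one. When peaks anywhere in the gene or within 50 kb of either end were counted, a rule added after the data had been seen, AMOTL1 and AMOTL2 had one, 2 of 9, against 7.93% of genes. With a false discovery rate (FDR) of at most 5% required, 0 of 9 had a peak within 50 kb of the gene start, where 0.648% of all genes had one.

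The AMOTL1 peak, chr11:94599274-94600678, held 50 tags and was called against both controls. Against buffer it was 11.6-fold over the control with a score of 179.6, place 15 of 542 by score, and an FDR of 0.00%. Against Wnt3a-treated control it was 6.99-fold with a score of 97.4, place 64 of 540, and an FDR of 6.25%. Its summit lay in an intron, 160.2 kb downstream of the gene start, 98265 bases from the nearest start of a protein-coding transcript and 10126 bases before the gene end. It was thus the strongest call at any of the 9 genes, and it lay in the repeated sequence printed above, where GGGAGG stands 6 times in the window. So many GGGAGG were found in 3 of 804 peak windows.

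AMOTL2 had 3 peaks, each called against 1 control only. The start-site peak, chr3:134092751-134094425, held 65 tags and was called against buffer at 5.10-fold, with an FDR of 69.6% and place 263 of 542. Its summit was 1009 bases downstream of the gene start and 23 bases upstream of an internal start site, in the sequence printed above. The intron peak, chr3:134082711-134084020, held 52 tags, 11.1 kb downstream of the gene start, and was called against Wnt3a-treated control at 4.33-fold with an FDR of 49.2%. The distal peak, chr3:134031649-134032820, held 36 tags and lay 62.2 kb downstream of the gene start and outside the gene, with an FDR of 43.3% against the same control. These rates are near those of the lists as a whole, whose median FDR was 69.6% against buffer and 39.7% against Wnt3a-treated control.

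**Figure D5:**
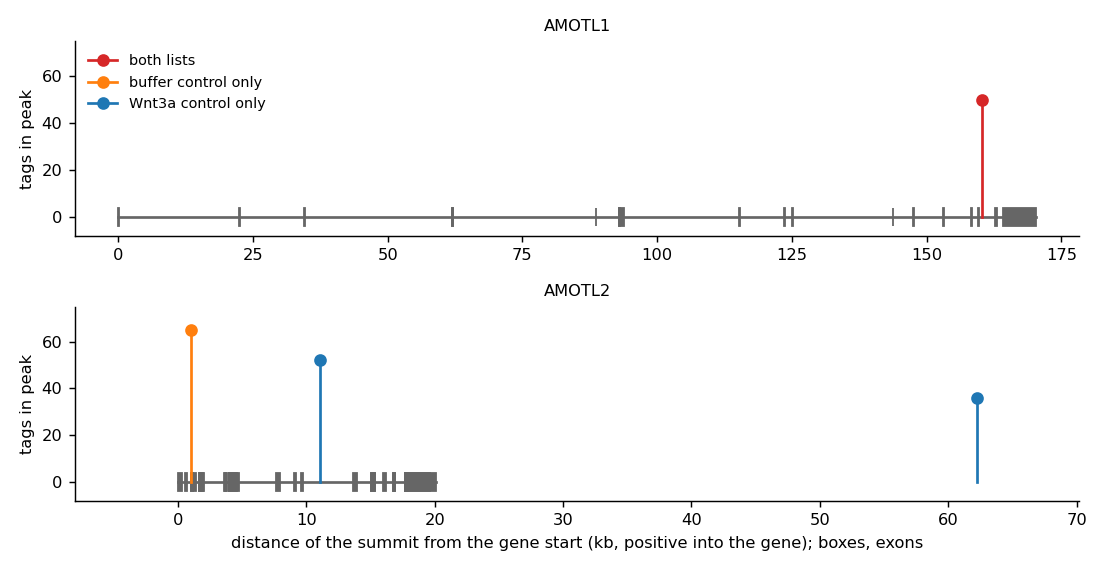
SP5 peaks along AMOTL1 and AMOTL2, with the distance of the summit from the gene start in kb on the x axis and tags in the peak on the y axis, grey boxes for exons. The single AMOTL1 peak, in both lists, lies near the end of the gene at 160.2 kb, and the AMOTL2 peaks, each in 1 list, lie at 1.0, 11.1 and 62.2 kb.

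Within 100 bases of the summit, GGGCGG or GGGAGG was found in 2 of these 4 peaks, AMOTL1 and the AMOTL2 intron peak, against 59.3% of all 804 peaks searched. GGGAGG alone was found in 47.5% of peaks and GGGCGG alone in 36.4%. The other 7 genes had their nearest summit far away: 201.0 kb for LATS2, 242.5 kb for CYR61, 378.2 kb for ANKRD1, 581.1 kb for CTGF, 4049.7 kb for TEAD1, 4966.1 kb for WWTR1 and 6725.4 kb for YAP1.

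The stretches upstream of CTGF, which ended lower, and of ANKRD1, listed above 0 only at 48 h, both hold the TEAD letters. CYR61, the readout gene that also ended lower, has no entry in the promoter table used. The sequences are the 250 bases before the start in the RefSeq promoter table, both on the minus strand of GRCh37, chr6:132272513-132272762 for CTGF (CCN2 in the table) and chr10:92680845-92681094 for ANKRD1, with capitals for GGAATG.
CTGF upstream: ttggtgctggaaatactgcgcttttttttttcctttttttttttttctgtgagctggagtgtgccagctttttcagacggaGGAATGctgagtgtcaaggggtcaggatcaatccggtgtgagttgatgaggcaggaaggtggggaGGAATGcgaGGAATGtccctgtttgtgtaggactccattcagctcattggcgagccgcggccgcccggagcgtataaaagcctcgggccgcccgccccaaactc
ANKRD1 upstream: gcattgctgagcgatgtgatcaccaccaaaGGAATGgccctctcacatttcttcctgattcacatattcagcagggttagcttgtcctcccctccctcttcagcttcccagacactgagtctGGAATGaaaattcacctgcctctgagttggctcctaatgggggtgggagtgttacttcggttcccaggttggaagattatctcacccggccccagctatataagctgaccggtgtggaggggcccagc
CTGF held GGAATG 3 times and ANKRD1 2 times, either strand searched. At least 1 was found in 11.9% of the 35116 promoters of the table, at least 2 in 0.940% and at least 3 in 0.0826%. Among the other members, the stretch upstream of the YAP1 start and that of the internal AMOTL2 start held it 1 time each, and LATS2, AMOTL1 and WWTR1 held none. TEAD1 was not in the table either. The motif was searched after the data had been seen, and a match is no evidence that TEAD was bound.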

How the data were processed

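RNA-Seq was measured in 16 libraries of H1 cells and SP5 ChIP-Seq in 2 samples. Per the labels and the paper, the authors used TopHat to align reads to hg19 and Cuffdiff to obtain RPKM. Bowtie 0.12.7, SAMtools 0.1.12a and MACS 1.4.2 are named in the submitters' processing notes, and the gene annotation is not given in the sources used here. The authors deposited RPKM to 1 decimal for the first WT series, and each gene as a fraction of its highest RPKM for both WT series. For dZF1 and dZF2 they deposited a ratio to the highest WT rep2 RPKM, for genes chosen by the study for a response to Wnt3a. The depth of the RNA libraries is unknown, since the files hold no read counts. For each peak the authors deposited a count of tags, a score that grows as the MACS p-value shrinks, the fold enrichment and an FDR in percent. The ChIP library had 18641194 tags, per the file headers, and was not replicated.

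Changes were log2 ratios with a pseudocount of 1 (RPKM) or 0.05 (fractions and ratios). Peaks were set against gene starts of GENCODE 44 mapped to GRCh37, where 10651 of 10975 symbols matched, and motifs were searched on both strands within 100 bases of summits (4 of 808 distinct peaks lay on sequences not searched). RefSeq promoters matched GRCh37 for 7 of the 9 genes. Python 3.11.15, numpy 2.4.6, pandas 2.3.3 and matplotlib 3.10.9 were used. The 2-fold calls, with planted changes well past that line, and the correlation ranking were tested on simulated data. The peak, motif and clone-ratio steps were not simulated.

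The genes, lists and tests were chosen with earlier results of these data known. Named were the 9 genes, list genes at least 2-fold changed at 48 h, listed genes of the AMOT, TEAD, LATS and VGLL families, the 5 genes most like each motin, and SP5. GADD45B, F3, the genes at the edge of each list and the other genes named with values were chosen after their values were seen. Samples were grouped by their labels. The alternatives were other pseudocounts, thresholds, distances and windows, and each series left out in turn.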

Additional observations from a re-analysis of the deposited data

How the results depend on the processing

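Changes from 0 h were taken within each series, so pairing by WT replicate number is built into them, and without the replicate block the mean WT change at 48 h is the same by construction (1.25 for AMOTL1 and 0.76 for AMOTL2). The smallest exact sign-flip p of 2 pairs is 0.5, so none is given. The median log2 change of the 9 genes at 48 h was 0.43 with a pseudocount of 0.1 and 0.34 with 5, and 0.37 without ANKRD1, which is listed at 0. The number of pathway genes at least 2-fold higher at 48 h was 3 with a pseudocount of 0.1, 1 with a pseudocount of 5, 1 without ANKRD1, 4 with a 1.5-fold threshold and 1 with a maximum RPKM of at least 10. The number lower was 0 with a pseudocount of 5 and 2 with a 1.5-fold threshold. The share over all genes was not computed with the other pseudocounts, threshold and minimum RPKM. These counts therefore cannot be set against all genes. The log2 ratio of AMOTL1 in the clones to WT rep2 at 48 h was 0.42 with a pseudocount of 0.2 and 0.42 when centred on the median of all genes. Leaving out 1 series at a time, the difference between clones and WT in the change from 0 to 48 h ran from -0.45 to 0.29 for AMOTL1, reversed without WT rep2 (0.29), and from -0.097 to 0.64 for AMOTL2, reversed without WT rep2 (-0.038) and without dZF2 (-0.097). Without the first WT series the change of AMOTL2 in WT was -0.22 at 12 h and -0.16 at 24 h, against 0.53 and 0.90 without WT rep2. Without WT rep2 the difference of the clones from WT in AMOTL2 was -0.033 at 12 h and -0.18 at 24 h, against 0.72 and 0.87 without the first WT series. The clone ratios to WT rep2 ran from 0.46 to 0.49 for AMOTL1 and from 0.01 to 0.82 for AMOTL2 at 48 h, with 1 clone left out. Members with a peak within 50 kb of the gene start numbered 0 at an FDR of at most 5%, which leaves the AMOTL1 peak, within the gene at an FDR of 0.00% against buffer, outside the distance. They numbered 2 with the start sites of all transcripts, those that are not protein-coding included, against 7.22% of all genes. They numbered 2 for a peak within the gene, against 2.51%, and 2 within the gene or 50 kb of either end, against 7.93%. The latter pair of rules, the count without ANKRD1 and the value without the block were added after seeing the data. GC-box letters were in all 4 peaks when the whole peak was searched, as in 77.6% of all peaks. Of the 10 genes most like the motins, 4 were shared without the 4 WT libraries and 6 with Spearman's correlation. The causes of these shifts were not tested. Of 74 other values recomputed for AMOTL1 and AMOTL2, 64 moved by less than the SD between series or clones, 6 by more, and 4, given above, changed sign. Where 1 of 2 series or clones was left out, a shift of less than that SD was fixed by construction, as was no shift without the block. The count of 64 is therefore not a measure of stability. The changes of single genes in the first WT series have no spread to be set against. With the other pseudocounts they kept their sign and shifted by 0.003 to 0.35 on the log2 scale, ANKRD1 apart. With 1 library per series and time and no counts, precision within a series is unknown.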
